A study of Rattus norvegicus with 9 samples.

Results

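The immediate early transcription factors described here were 10 genes, Fos, Fosb, Jun, Junb, Egr1, Egr2, Ier2, Nr4a1, Atf3 and Klf10, of 14217 genes named on the arrays. They were chosen by name, as genes known for rapid induction, but with earlier results of these data known. Every probe set annotated with 1 of these symbols and no other was included. That gave 14 probe sets of the 31042 that were not controls, with 3 for Jun, 2 each for Fos and Egr2, and 1 for each of the other 7 genes. Islet RNA was taken from male Zucker Diabetic Fatty rats (fa/fa), an obese diabetic strain that lacks normal leptin receptor signalling, and each group had 3 arrays. The withdrawal rats ate rosiglitazone, a thiazolidinedione that activates the nuclear receptor PPAR gamma, at 3 mg per kg body weight from week 5 to week 9, then went 2 weeks without it and were sampled at 11 weeks of age. The treated rats ate the same dose from week 5 to week 9 and were sampled at 9 weeks. The untreated rats received no drug and were sampled at 13 weeks. All groups carried the fa/fa genotype and ate the same chow, and no lean or age-matched group was analysed here. Each group thus had an age of its own, so treatment and age cannot be told apart in any comparison, and all 3 comparisons share arrays with one another.

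Immediate early genes are transcribed within minutes of a stimulus from factors already present in the cell, with no need for new protein synthesis. In beta cells, membrane depolarisation, calcium entry and cyclic AMP, which follow a rise in glucose, act through serum response factor with its partners and through CREB, and the Fos and Jun proteins then pair into the AP-1 factor while EGR proteins bind GC-rich sites. The same genes also respond to growth factors and to cell stress, including the handling of tissue.

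Promoters of members are shown for the sequences through which these stimuli are known to act. RefSeq promoter windows of 300 bases, 250 before and 50 from a transcript start, were found for 6 of the 10 genes. These were Egr1, Egr2, Fosb, Ier2, Junb and Nr4a1, in build GRCr8. For Egr1, Ier2 and Junb that start is the annotated gene start. For Egr2, Fosb and Nr4a1 it is not, so their windows and positions refer to another start. The last 120 bases before the start are printed for Egr1 (chr18:26736958-26737077, plus strand), Ier2 (chr19:40399253-40399372, plus strand) and Junb (chr19:40081006-40081125, plus strand), with motif matches in capitals.
Egr1: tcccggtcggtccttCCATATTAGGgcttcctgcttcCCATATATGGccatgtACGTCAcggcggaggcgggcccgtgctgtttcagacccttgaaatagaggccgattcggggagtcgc
Ier2: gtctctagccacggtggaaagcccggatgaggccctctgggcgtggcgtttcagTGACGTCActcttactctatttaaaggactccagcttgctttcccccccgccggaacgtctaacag
Junb: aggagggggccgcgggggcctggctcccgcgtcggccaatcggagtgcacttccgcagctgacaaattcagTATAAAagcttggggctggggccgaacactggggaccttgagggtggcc
The capitals in Egr1 are 2 CArG boxes, the serum response factor motif, at positions -105 to -96 and -83 to -74, followed by the core of the cyclic AMP response element, TGACGT, read on the opposite strand at -67 to -62. A second core lay at -136 to -131, outside the printed stretch. In Ier2 the capitals are that core on both strands, overlapping, at -66 to -59, and in Junb they are the TATA motif, TATAAA, at -49 to -44. Of the 6 windows, searched on both strands, CArG boxes were in 2 (Egr1 and Egr2), the cyclic AMP core in 3 (Egr1, Egr2 and Ier2), the EGR consensus in 1 (Nr4a1), and TATAAA in 2 (Fosb and Junb). The AP-1 site TGANTCA was in 0 of the 6. Over all 33469 windows of the same length, 1.64% held a CArG box, 7.94% the cyclic AMP core, 3.2% the EGR consensus, 14.2% TATAAA and 7.33% the AP-1 site. These matches describe letters in a window and are not binding data.

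**Figure D1:**
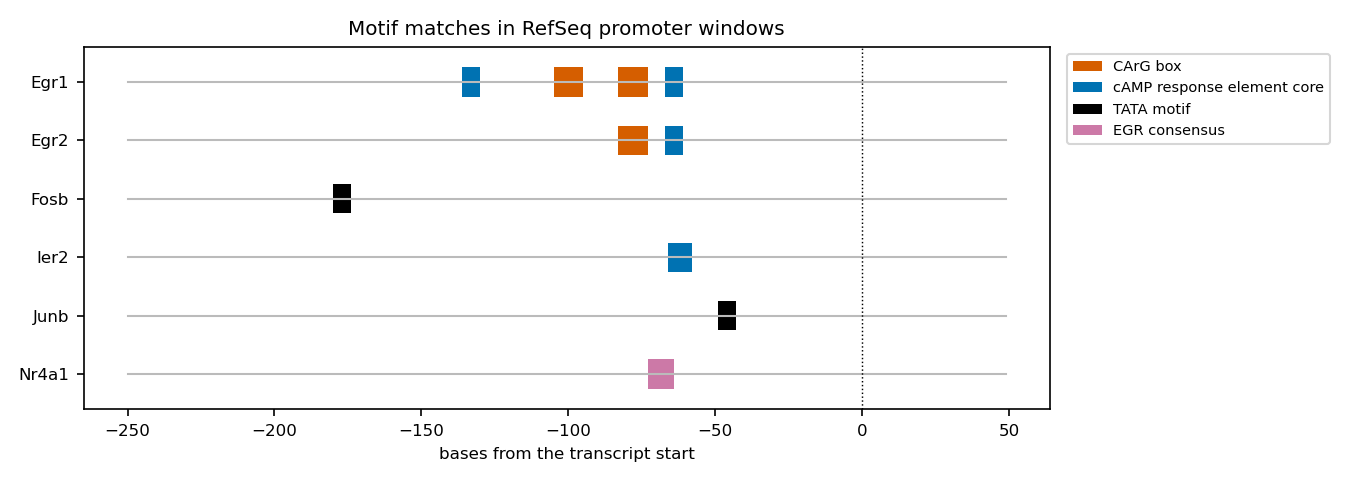
Motif matches in the RefSeq promoter windows of the 6 members that had one, drawn by distance in bases from the annotated transcript start (x axis, dotted line at the start), 1 gene per row. Egr1 and Egr2 both hold a CArG box at -83 to -74 and a cyclic AMP core at -67 to -62. For Egr2, Fosb and Nr4a1 the start drawn is not the annotated gene start.

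Values are log2 expression per probe set, as deposited. The spread of values over probe sets was wider on the treated arrays (standard deviation 1.84 to 2.00) than on the withdrawal arrays (1.65 to 1.72) and the untreated arrays (1.66 to 1.77). A difference between groups therefore moved with brightness. In treated minus untreated, the median difference was -0.03 in the dimmest of 10 equal classes of tested probe sets and 0.53 in the brightest, where Fos, Jun, Junb, Egr1 and Nr4a1 have probe sets. Quantile normalization, which gives every array the same distribution, was therefore set beside the member values and the counts of calls. All 14 probe sets lay above the dimmest 33.3% and were among the 20695 tested with limma, and a call means an adjusted p under 0.05 over all of them. Islets are a mixture, and in bulk RNA fewer cells of a type and less RNA per cell cannot be told apart. Insulin probe sets were among the brightest on the array, at group means of 14.11 withdrawal, 14.21 treated and 14.18 untreated for Ins1, and the 10 acinar markers averaged 13.83 to 13.99 on every array, so exocrine RNA was abundant in all groups.

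In treated against untreated islets, 9 of the 14 probe sets, covering 7 of the 10 genes, were higher, and the probe set of Klf10 was lower. The other 4 probe sets, of Fos (its second), Egr2 (both) and Nr4a1, did not pass. Over all tested probe sets 20.9% were called higher and 7.24% lower. The members were chosen with earlier results of these data known, so the shares over all probe sets are set beside them as a description. After quantile normalization the same 9 were called higher and Klf10 lower, against 7.75% higher and 9.45% lower over all probe sets. The median difference over the 14 probe sets was 1.28 as deposited, against 0.16 over all tested, and 0.78 against 0.015 after quantile normalization. The 3 treated arrays lay above all 3 untreated arrays in 9 of the 14 and below them in 1, against 31.2% and 11.7% of all tested probe sets.

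Fos, the partner of the Jun proteins in AP-1, had the widest treated minus untreated difference of the 14 as deposited, while after quantile normalization Atf3 had (1.63). The values of Fos came from 2 probe sets. The first Fos probe set, 1375043_at, measured 9.31, 10.24 and 10.90 on the withdrawal arrays, 11.89, 11.97 and 11.80 on the treated arrays, and 9.86, 9.19 and 10.47 on the untreated arrays. The treated arrays were high and close together and lay above all 6 others, while the withdrawal and untreated arrays overlapped over a wide range. Treated minus untreated was 2.05 ± 0.36 (SE, n = 3 each, limma adjusted p = 0.00344), a 4.14-fold difference, and 1.53 after quantile normalization. The second Fos probe set, 1371283_at, went the other way, at 6.82, 6.82 and 6.52 on the withdrawal arrays, 5.90, 6.35 and 6.48 on the treated arrays, and 6.41, 6.71 and 6.48 on the untreated arrays. Its treated minus untreated difference of -0.29 (95% interval -0.65 to 0.07, adjusted p = 0.196) did not pass. The 2 Fos probe sets therefore disagreed, and the Fos values below are of 1375043_at unless named otherwise.

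Fosb, a close relative of Fos, measured 6.60, 7.78 and 7.85 on the withdrawal arrays, 7.86, 8.70 and 8.72 on the treated arrays, and 6.13, 6.88 and 7.26 on the untreated arrays. As deposited, the lowest treated array stood just above the highest withdrawal array and clear of the untreated arrays. Quantile normalization put that treated array at 7.49, below withdrawal replicates 2 (7.99) and 3 (7.95). The treated minus untreated difference was 1.67 ± 0.36 (SE, adjusted p = 0.0082), and 1.37 after quantile normalization.

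The 3 probe sets of Jun, the main AP-1 partner of Fos, moved alike. Probe set 1389528_s_at measured 9.73, 10.31 and 10.65 on the withdrawal arrays, 11.49, 11.36 and 11.23 on the treated arrays, and 10.08, 9.48 and 10.33 on the untreated arrays. In each of the 3 probe sets the treated arrays lay above all 6 others as deposited, and the withdrawal and untreated arrays overlapped. With quantile normalization the treated arrays overlapped the withdrawal arrays in each of the 3 and stayed above the untreated arrays. Treated minus untreated was 1.40 ± 0.24 for 1389528_s_at, 1.41 ± 0.24 for 1369788_s_at and 1.62 ± 0.26 for 1374404_at (SE, adjusted p = 0.00331, 0.00307 and 0.00263), and 0.82, 0.84 and 1.17 after quantile normalization. The probe sets 1389528_s_at and 1374404_at are annotated to the same sequence record and are not independent measurements of Jun.

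Junb, which competes with Jun for partners, measured 9.19, 9.44 and 9.58 on the withdrawal arrays, 10.53, 10.15 and 10.28 on the treated arrays, and 9.34, 8.85 and 9.41 on the untreated arrays. As deposited, no treated array overlapped another group, while with quantile normalization the treated and withdrawal arrays overlapped. The difference of treated minus untreated was 1.12 ± 0.17 (SE, adjusted p = 0.00219), where the median of equally bright probe sets was 0.53, and 0.55 after quantile normalization.

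Atf3, a stress-induced member of the ATF/CREB family that also pairs with Jun, measured 5.65, 6.64 and 7.26 on the withdrawal arrays, 7.61, 7.74 and 8.004 on the treated arrays, and 6.03, 5.82 and 6.04 on the untreated arrays. As deposited, the untreated arrays agreed within 0.22, the treated arrays lay above all others, and the withdrawal arrays spread over 1.61. With quantile normalization treated replicate 1 (7.29) lay below withdrawal replicate 3 (7.33). Atf3 differed by 1.82 ± 0.30 between treated and untreated islets (SE, adjusted p = 0.00285), 3.54-fold difference, and 1.63 after quantile normalization. Atf3 was of middle brightness, where the median of all probe sets differed by 0.16.

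**Figure D2:**
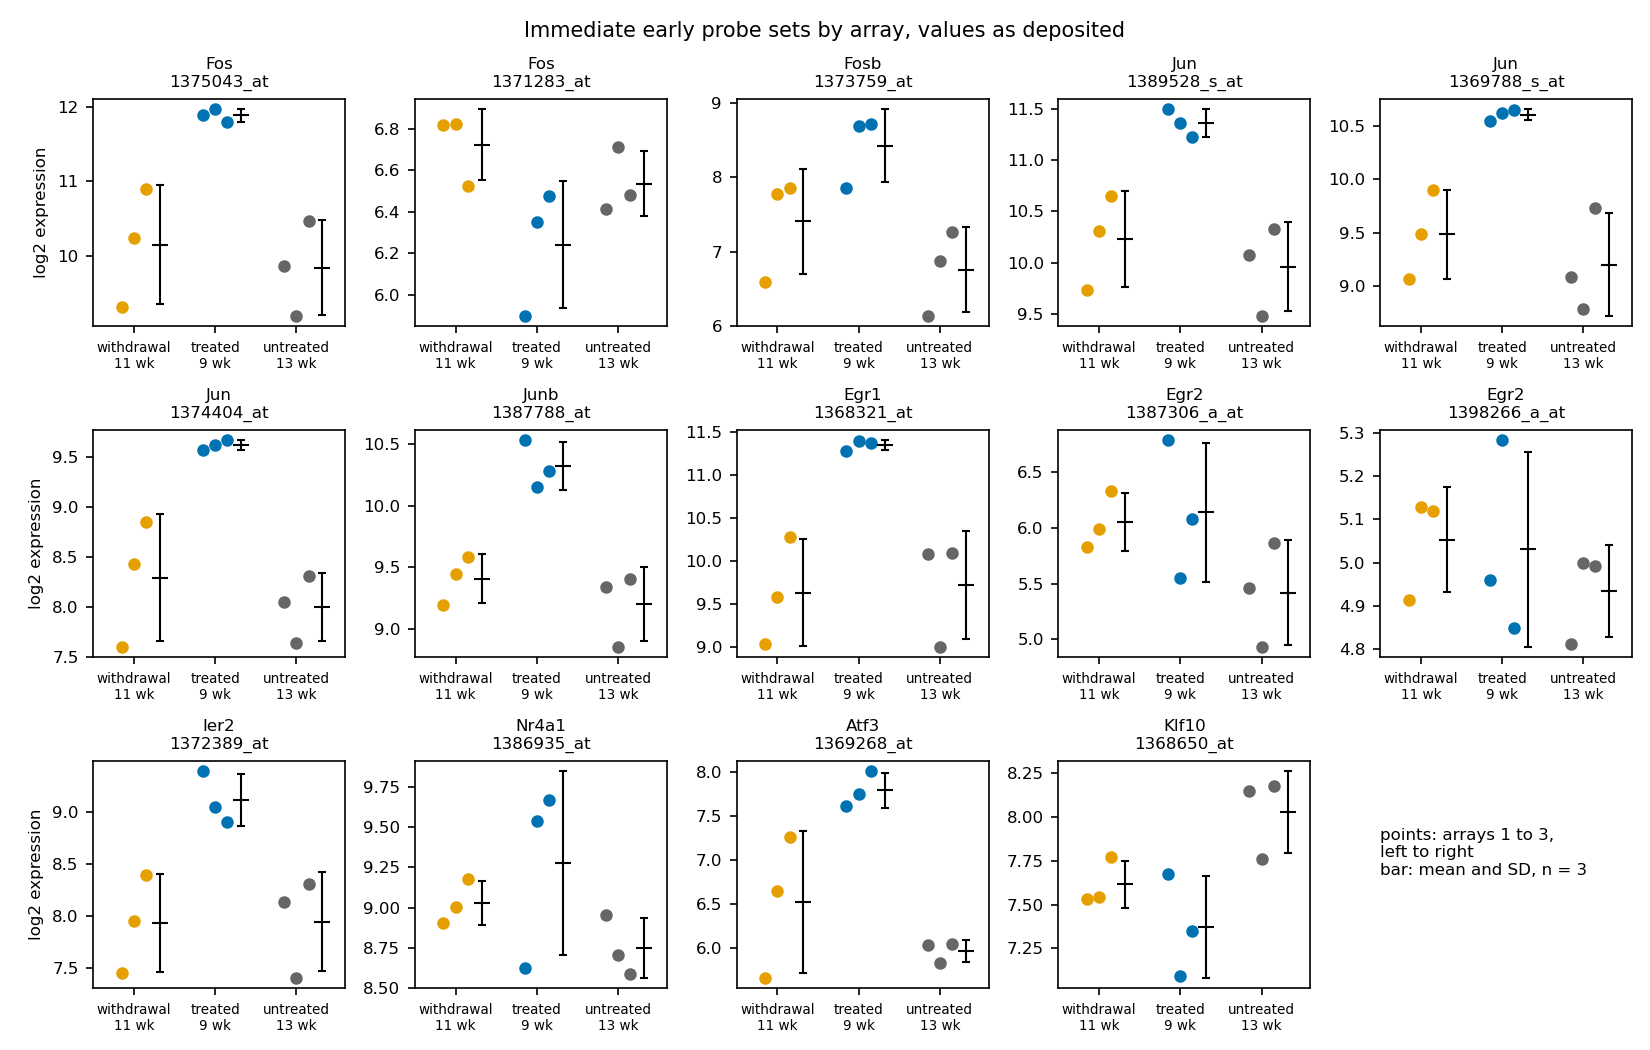
Log2 expression as deposited (y axis, scaled per panel) of the 14 probe sets on the 9 arrays. Points are arrays 1 to 3 of the withdrawal (orange), treated (blue) and untreated (grey) groups, and bars are the mean and SD of 3 arrays. For Fos 1375043_at the treated arrays lie at 11.80 to 11.97, above all others, and for Klf10 at 7.09 to 7.68, below the untreated arrays.

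Among the zinc finger members, Egr1, an activator that binds GC-rich sites, measured 9.03, 9.58 and 10.28 on the withdrawal arrays, 11.28, 11.39 and 11.36 on the treated arrays, and 10.07, 9.00 and 10.09 on the untreated arrays. As deposited, the treated arrays agreed within 0.11 and stood a full log2 unit over the highest of the other 6. With quantile normalization they measured 10.53, 11.07 and 11.01, just above withdrawal replicate 3 at 10.45. Egr1 differed by 1.62 ± 0.31 in treated minus untreated (SE, adjusted p = 0.00524), a 3.07-fold difference, and 1.04 after quantile normalization. Its paralog Egr2 did not pass in either probe set. Egr2 1387306_a_at measured 5.83, 5.99 and 6.33 on the withdrawal arrays, 6.78, 5.55 and 6.08 on the treated arrays, and 5.46, 4.93 and 5.86 on the untreated arrays. These groups overlapped, with the treated arrays the most scattered, and treated minus untreated was 0.72 (95% interval 0.08 to 1.36, adjusted p = 0.0846). Egr2 1398266_a_at lay between 4.81 and 5.28 on all 9 arrays, and its difference was 0.10 (95% interval -0.21 to 0.40, adjusted p = 0.623).

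Klf10, a repressor of the Krüppel-like family induced by TGF-beta, was the member that fell. It measured 7.53, 7.54 and 7.77 on the withdrawal arrays, 7.68, 7.09 and 7.35 on the treated arrays, and 8.15, 7.76 and 8.18 on the untreated arrays. All treated arrays were below all untreated arrays, and the withdrawal arrays reached from the treated level to just over the lowest untreated array. Treated minus untreated was -0.66 ± 0.17 (SE, adjusted p = 0.0165), where the median of equally bright probe sets was 0.27, and -0.89 after quantile normalization (adjusted p = 0.00199). As deposited, the Klf10 call was lost without untreated replicate 1 or without untreated replicate 3 (highest adjusted p = 0.0575 over the 9 fits that leave out an array).

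Ier2, a small nuclear protein, measured 7.45, 7.95 and 8.40 on the withdrawal arrays, 9.40, 9.05 and 8.91 on the treated arrays, and 8.13, 7.40 and 8.31 on the untreated arrays. The treated arrays lay above all others, which overlapped. Treated minus untreated was 1.17 ± 0.26 (SE, adjusted p = 0.00945), and 0.75 after quantile normalization (adjusted p = 0.0469). Nr4a1, an orphan nuclear receptor, measured 8.91, 9.00 and 9.18 on the withdrawal arrays, 8.62, 9.54 and 9.67 on the treated arrays, and 8.95, 8.71 and 8.59 on the untreated arrays. As deposited, treated replicate 1 sat with the untreated arrays while the other 2 treated arrays were above all 6 arrays of the other groups. The difference of treated minus untreated for Nr4a1 was 0.53 (95% interval 0.03 to 1.03, adjusted p = 0.103), the same as the median of equally bright probe sets, and 0.075 after quantile normalization. Without treated replicate 1 it was 0.86 as deposited (limma adjusted p = 0.000523) and 0.46 after quantile normalization (adjusted p = 0.024). Without treated replicate 2 or 3 it was -0.10 or -0.14 after quantile normalization.

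**Figure D3:**
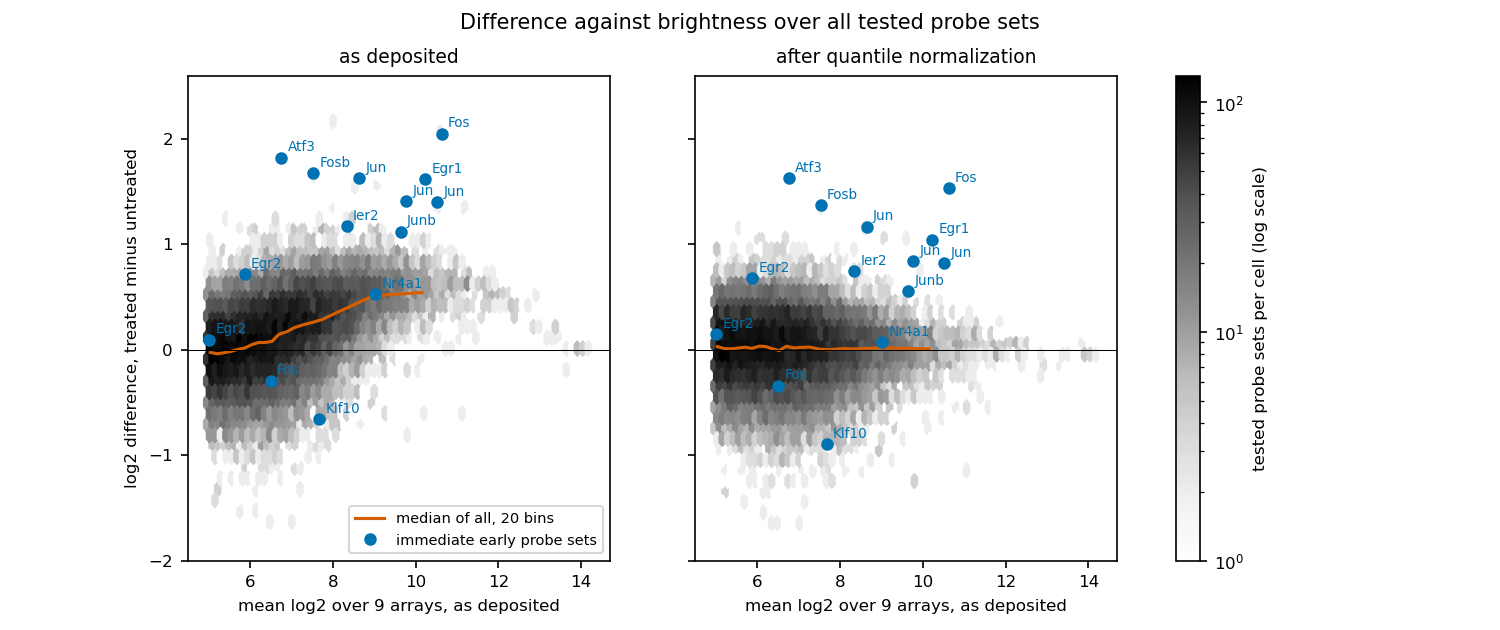
Treated minus untreated log2 difference (y axis) against the mean log2 level over 9 arrays (x axis) for all tested probe sets (grey, shade by number of probe sets on a log scale), with the median in 20 bins (orange line) and the 14 immediate early probe sets (blue), as deposited (left) and after quantile normalization (right). In the brightest of 10 equal classes, which are wider than the bins drawn, the median over all is 0.53 as deposited and near 0 after normalization. Fos stands at 2.05 and 1.53.

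Leaving out 1 array at a time, the number of the 14 called in treated minus untreated stayed between 9 and 11 as deposited. After quantile normalization it ranged from 3 to 10, with 3 (Fos 1.32, Atf3 1.57 and Klf10 -0.99) without untreated replicate 2, 6 without treated replicate 3, and 7 to 10 in the other 7 fits. Over all tested probe sets the count without untreated replicate 2 was 1267 after quantile normalization, against 3559 with all arrays. Fos, Atf3 and Klf10 passed in all 9 of these fits. Egr1 passed in 6, Ier2 in 3, Fosb in 5, Junb in 8, and the 3 Jun probe sets in 8, 5 and 8. The differences of these genes kept their sign in every one of the 9 fits, and ranged from 0.79 to 1.22 for Egr1 and from 0.53 to 0.90 for Ier2.

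The withdrawal islets were set against the untreated islets to ask whether levels 2 weeks after the drug differed from those of rats never given it. None of the 14 probe sets was called (0 of 14, against 0.159% of all tested), also after quantile normalization (0 of 14, against 0.420%). At an unadjusted p under 0.05, limma gave 1 as deposited, Klf10 at -0.41, and 4 after quantile normalization. No probe set had non-overlapping groups as deposited, where 7.65% of all tested lay wholly higher and 10.3% wholly lower. After quantile normalization Junb and Nr4a1 lay wholly higher in withdrawal and Klf10 wholly lower, 2 and 1 of the 14, against 9.74% and 11.6% of all tested. The median difference over the 14 was 0.27, against -0.02 over all tested, and 0.43 against -0.0003 after quantile normalization.

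With 3 arrays a group these differences were loosely bounded. Withdrawal minus untreated was 0.31 for Fos (95% interval -0.47 to 1.09), -0.09 for Egr1 (-0.78 to 0.59), -0.01 for Ier2 (-0.58 to 0.56) and 0.21 for Junb (-0.17 to 0.58). Fosb at 0.65 (-0.13 to 1.44), Atf3 at 0.56 (-0.10 to 1.21) and Egr2 1387306_a_at at 0.63 (-0.007 to 1.27) had intervals that, like that of Fos, allow more than a doubling. After quantile normalization the values were 0.50 for Fos (-0.18 to 1.19), 0.74 for Fosb (-0.13 to 1.61) and 0.39 for Junb (0.14 to 0.65, adjusted p = 0.232). With arrays weighted by their quality in limma, Klf10 alone was called, at -0.53 (adjusted p = 0.00452), when 15.8% of all tested probe sets were called (3275 of 20695).

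In the withdrawal against the treated islets, which differ by 2 weeks of age and 2 weeks off the drug, 9 of the 14 probe sets (7 genes) were lower and 1 was higher, against 32.6% lower and 11.2% higher of all tested probe sets. The same 10 had groups that did not overlap, where 39.0% of all tested lay wholly lower in withdrawal and 14.9% wholly higher. The 9 were those of Fos (1375043_at), Fosb, Jun (3), Junb, Egr1, Ier2 and Atf3, and the 1 was the second Fos probe set, 1371283_at, at 0.48 (adjusted p = 0.0341). Withdrawal minus treated was -1.74 ± 0.36 for Fos (SE, adjusted p = 0.0034), -1.71 ± 0.31 for Egr1 (0.00204) and -1.27 ± 0.30 for Atf3 (0.00641). For the 3 Jun probe sets it lay between -1.33 and -1.12, and it was -1.18 for Ier2, -1.02 for Fosb and -0.91 for Junb. The Fosb call (adjusted p = 0.0381) was lost in 4 of the 9 fits that leave out an array, those without treated replicate 2 or 3, withdrawal replicate 1 or untreated replicate 2 (-1.30 to -0.61 over the 9, adjusted p up to 0.172). The call of Fos 1371283_at was lost in 3, those without treated replicate 1 or withdrawal replicate 1 or 2 (0.31 to 0.60 over the 9, adjusted p up to 0.120). The brightest class of all probe sets differed by a median of -0.72 here, so the Junb and Jun values stood less far from those of other bright probe sets than those of Fos and Egr1.

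After quantile normalization only 3 of the 9 remained called lower in withdrawal against treated, Fos at -1.03 (adjusted p = 0.0308), Egr1 at -0.95 (0.0265) and Atf3 at -1.04 (0.0348). Klf10 was then called higher, at 0.54 (0.0088), as was the second Fos probe set at 0.55 (0.033), and 14.6% of all tested probe sets were called in each direction. Jun lay between -0.74 and -0.34, Ier2 at -0.66, Fosb at -0.64 and Junb at -0.16, none of them past the threshold. With 1 array left out as well, the calls numbered 1 to 7, and in 4 of the 9 fits, those without treated replicate 2 or 3 or without withdrawal replicate 1 or 2, 0 were called lower. Over all tested probe sets those 4 fits called 2593 to 5371 in either direction, against 6032 with all arrays, and the other 5 called 4930 to 6801. Klf10 was called in all 9 fits, Fos 1371283_at in 6, Fos 1375043_at and Egr1 in 5 each and Atf3 in 3.

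**Figure D4:**
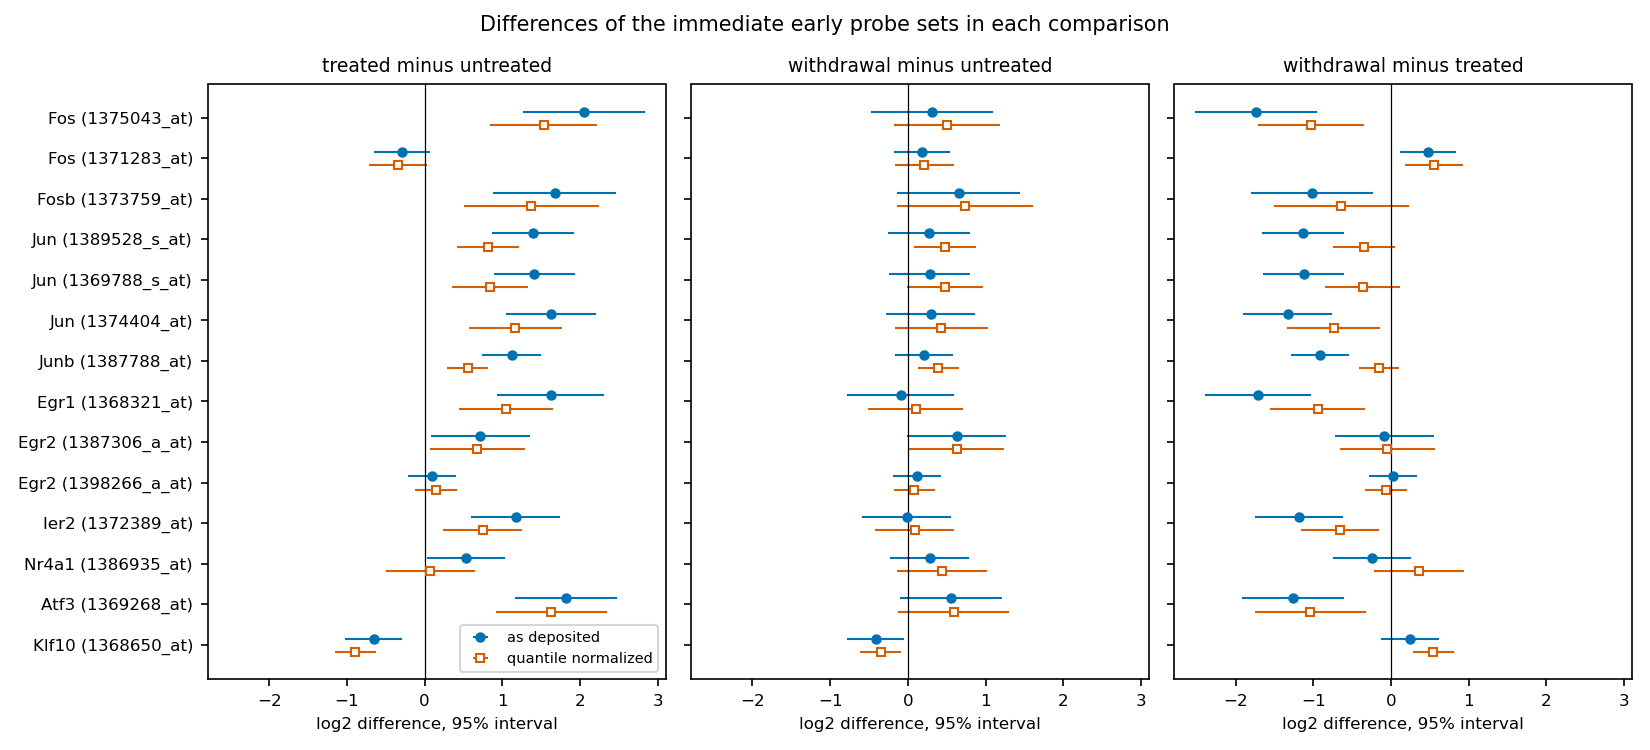
Log2 differences with 95% intervals (x axis) of the 14 probe sets (rows) in treated minus untreated, withdrawal minus untreated and withdrawal minus treated, as deposited (filled blue) and after quantile normalization (open orange). In withdrawal minus treated, Junb moves from -0.91 to -0.16 with normalization and Fos from -1.74 to -1.03.

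Within the withdrawal and untreated groups, most member probe sets had the same array lowest and the same array highest. Withdrawal replicate 1 was the lowest of its group in 13 of the 14 probe sets and withdrawal replicate 3 the highest in 12, with a median range over the 3 arrays of 0.88. Untreated replicate 2 was the lowest of its group in 10 and untreated replicate 3 the highest in 11, with a median range of 0.76. As deposited, treated replicate 1 was the lowest of its group in 7 and the highest in 5. Treated replicate 3 was the highest in 6, and the median range was 0.41. Such counts were not made over all tested probe sets. The standard deviation over all probe sets was 1.67, 1.65 and 1.72 on withdrawal arrays 1 to 3. It was 1.76, 1.66 and 1.77 on untreated arrays 1 to 3. Its part in these orders was not tested. After quantile normalization withdrawal replicate 1 was still lowest in 13 and treated replicate 1 was lowest in 10, and the median ranges were 0.70 in withdrawal, 0.50 in treated and 0.48 in untreated. Over the 9 arrays, with each gene's brightest probe set after quantile normalization, the Pearson correlation of a member with the mean of the other 9 was 0.97 for Fos and for Jun, 0.95 for Atf3, 0.91 for Junb, 0.89 for Egr1, 0.88 for Ier2 and 0.84 for Fosb. It was 0.55 for Egr2, 0.11 for Nr4a1 and -0.72 for Klf10. The arrays share their group in these correlations, which are given as a description.

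The heat shock genes, a set of chaperones induced by heat and other protein stress, were also mostly higher in treated islets as deposited. This list, like the members and the lists below, was chosen with earlier results of these data known. Of 11 tested, 8 were higher in treated than untreated islets and 0 lower, against 24.0% and 5.74% of all genes. Their median was 0.77 against 0.22 for all genes, with 1 probe set per gene. After quantile normalization 3 were higher and 0 lower, against 7.59% and 8.88% of all genes, at a median of 0.40 against 0.02. Hspa1a, the inducible HSP70, had a difference of 2.00 (adjusted p = 0.00292; 1.42 after quantile normalization, 0.0254), Dnajb1, an HSP40, of 1.57, and the mitochondrial chaperonin genes Hspe1 and Hspd1 of 1.07 and 0.77. Hsph1, an HSP110, was higher by 0.87. After quantile normalization Hspe1 was still called, at 0.49 (adjusted p = 0.0118), while Dnajb1 at 1.08 (0.0577), Hsph1 at 0.41 (0.156) and Hspd1 at 0.18 (0.210) were not. The mean over the 11 genes was 8.51, 8.88 and 9.22 on withdrawal arrays 1, 2 and 3, 9.56 to 9.79 on the treated arrays and 8.62 to 9.03 on the untreated arrays, so withdrawal array 1 was the lowest and array 3 the highest of their group here too. With quantile normalization this mean was 9.21 to 9.40 on the treated and 8.76 to 9.33 on the withdrawal arrays, which overlapped. Markers of cell types and of RNA integrity also differed between arrays. The 7 beta cell markers measured averaged 11.15 to 11.36 on withdrawal, 11.88 to 12.04 on treated and 11.35 to 11.64 on untreated arrays. As deposited 3 of the 7 were called higher in treated than untreated, and 0 after quantile normalization. With quantile normalization these averages were 11.37 to 11.42, 11.655 to 11.74 and 11.575 to 11.645, so the treated arrays still lay above all others. In withdrawal against treated, 4 of the 7 were called lower as deposited and 3 after normalization. Of all tested probe sets 32.6% and 14.6% were lower. The 8 markers of other islet hormone cells averaged 8.98 to 9.20 on withdrawal, 9.69 to 10.03 on treated and 9.18 to 9.33 on untreated arrays. As deposited 3 of the 8 were called higher in treated than untreated and 0 lower, and 3 higher and 1 lower after quantile normalization. With quantile normalization these averages were 9.20 to 9.30, 9.53 to 9.68 and 9.23 to 9.42. The 8 T cell markers averaged 5.87 to 6.09 on withdrawal, 5.37 to 5.56 on treated and 5.75 to 5.87 on untreated arrays. The 10 macrophage markers averaged 7.66 to 7.82 on withdrawal, 6.66 to 7.97 on treated and 7.24 to 7.36 on untreated arrays as deposited. The treated arrays thus lay on both sides of the other groups. With quantile normalization they averaged 7.84 to 7.93, 6.59 to 7.635 and 7.35 to 7.38, so treated lay below withdrawal. The 8 stellate cell markers averaged 10.10 to 10.32 on withdrawal, 9.27 to 10.75 on treated and 9.55 to 10.02 on untreated arrays. With quantile normalization they averaged 10.44 to 10.48, 9.05 to 10.12 and 9.79 to 9.99. Averages of the duct markers and of the endothelial markers overlapped between all groups, as deposited and after quantile normalization. The log2 excess of the 3′ over the 5′ actin control probe sets, which is larger where RNA is less intact, was 0.95 to 1.06 on withdrawal, 0.71 to 0.89 on treated and 0.97 to 1.12 on untreated arrays. All treated arrays thus lay below all others. The same excess for GAPDH overlapped between the groups, at 0.56 to 0.87 on withdrawal, 0.57 to 0.70 on treated and 0.65 to 0.86 on untreated arrays. The part of any of these in the member values was not tested.

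Around the members, the other early genes moved in part. Per gene, 24.0% of all genes were called higher and 5.74% lower in treated against untreated islets (7.59% and 8.88% after quantile normalization), and the median gene differed by 0.22 (0.02). Of 31 other immediate early and early response genes tested, 13 were higher and 0 lower, with a median of 0.49, and 8 and 0 after normalization. They were led by Rgs2, a brake on G protein signalling, at 1.62 (adjusted p = 0.00188), Gadd45g, a growth arrest gene, at 1.56, Zfp36, which destabilises AU-rich messages, at 1.15, Arc at 1.11 and Tob1, an antiproliferative gene, at 0.998. After normalization Gadd45g (1.09), Rgs2 (1.08), Arc (0.93) and Tob1 (0.60, adjusted p = 0.0492) were still called, and Zfp36 at 0.56 (adjusted p = 0.0683) was not. Myc was higher by 0.71 (0.42 after normalization, adjusted p = 0.0416), and Ier3 at 1.08 (adjusted p = 0.0624) did not pass.

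Close relatives of the members were called in small numbers, as were genes at large. As deposited 2 of 7 and 2 of 13 in the 2 lists were higher and 0 lower, when 24.0% of all genes were higher and 5.74% lower. After quantile normalization the first list had 0 calls and the second 1 higher and 1 lower. Over all genes 7.59% were then higher and 8.88% lower. Of 7 other AP-1 and small MAF factors tested, Jund was higher by 0.70 and Atf2 by 0.39, and neither passed after quantile normalization, while Fosl2 differed by 0.22 (adjusted p = 0.207). Of 13 other EGR, NR4A and KLF factors and corepressors, Klf6 was higher by 1.34 (0.92 after normalization, adjusted p = 0.0144) and Klf9 by 0.59 (0.16, adjusted p = 0.642), and 0 were lower. After normalization the corepressor gene Nab1 was called lower, at -0.43 (adjusted p = 0.0149). The relatives Egr3 at 0.08, Nr4a3 at -0.09 and Nr4a2 at -0.57 (adjusted p = 0.0579) did not pass. The medians of these 2 groups were 0.22 and 0.13, beside 0.22 for all genes.

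Genes that restrain or carry the upstream signal gave a similar picture. Of 11 MAP kinase phosphatases and Sprouty inhibitors, 4 were higher and 0 lower, when 24.0% of all genes were higher and 5.74% lower. The 4 were Dusp1 by 0.91, Dusp7 by 0.83, Dusp6 by 0.73 and Dusp10 by 0.54. After normalization Dusp7 (0.62) and Dusp10 (0.48) were called higher and Spry4 lower (-0.46), and Dusp1 at 0.32 (adjusted p = 0.166) and Dusp6 at 0.28 (0.108) did not pass. Of 21 upstream kinases and factors, 8 were higher and 0 lower as deposited, led by the kinase gene Rps6ka3 at 0.81. Camk2b, Ppp3ca, Prkaca and Map2k2 lay between 0.56 and 0.65. After normalization 1 was higher (Rps6ka3 at 0.62) and 2 lower, when 7.59% of all genes were higher and 8.88% lower. The medians of these 2 lists were 0.20 and 0.18 as deposited, beside 0.22 for all genes. They were 0.03 and 0.05 after normalization, beside 0.02. Srf, the serum response factor, differed by 0.37 (adjusted p = 0.0815), and Crem, a cyclic AMP responsive factor, by -0.41 (0.0861), which passed as lower only after normalization at -0.74. In withdrawal against untreated islets limma called 0 of the 94 tested genes of these 6 lists (8 at an unadjusted p under 0.05), against 0.00861% higher and 0.189% lower of all genes. In withdrawal against treated islets it called 45 of the 94 as deposited, when 32.6% of all tested probe sets were lower and 11.2% higher. Of the heat shock genes 8 were lower and 0 higher, and 1 and 0 after quantile normalization. Of the 31 other early genes 14 were lower and 0 higher, and 4 and 3 after quantile normalization.

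**Figure D5:**
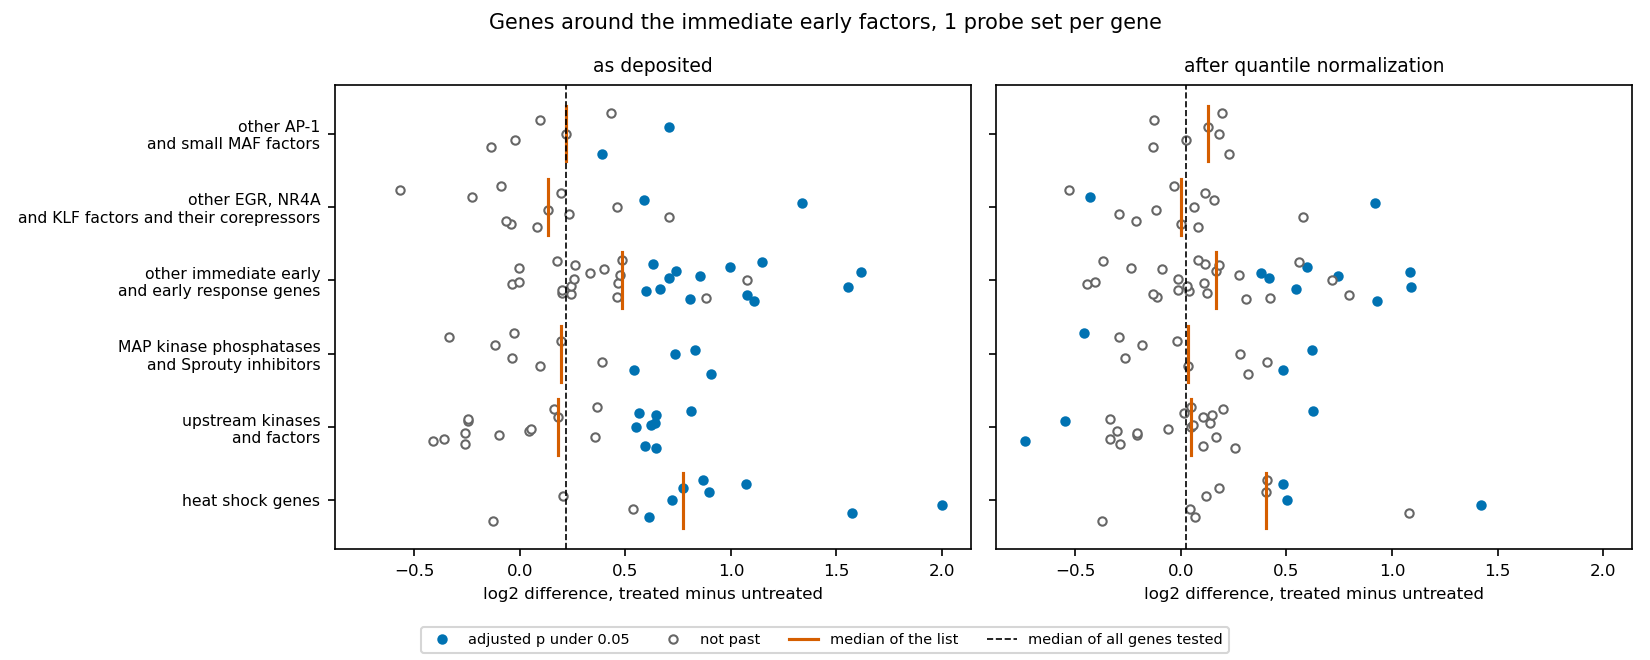
Treated minus untreated log2 difference (x axis) of each tested gene in 6 lists around the members (rows), 1 probe set per gene, as deposited (left) and after quantile normalization (right). Filled points passed an adjusted p under 0.05, orange bars are list medians and the dashed line is the median of all genes. The heat shock median lies at 0.77 and that of other immediate early genes at 0.49, beside 0.22 for all genes as deposited.

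The genes whose pattern was most like that of the members were ranked by the Pearson correlation over the 9 arrays, after quantile normalization, with the mean of the 10 centred members. Of 11606 genes the first 5 were Ddit4, an inhibitor of mTOR signalling induced by stress and glucocorticoids (r = 0.970), Rgs2 (0.962), Fkbp5, a glucocorticoid-induced cochaperone (0.958), Rps27l (0.949) and Ppp1r15a, a phosphatase subunit of the integrated stress response (0.943). Tnni2, Eif2s2, Cuta, Hagh and Washc3 followed, at 0.928 to 0.940. Ddit4 averaged 8.10 on the withdrawal, 9.21 on the treated and 7.999 on the untreated arrays, and Ppp1r15a averaged 7.72, 8.65 and 7.61 on the same groups. These ranks are a description of 9 arrays in 3 groups.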

How the data were processed

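Total RNA from islets was hybridised to 9 Affymetrix rat expression arrays. The deposited values are log2 expression per probe set, a scale taken from their range. RMA and MAS5 are named in the submitters' processing notes, with roles and versions not given in the sources used here. Array brightness and the number of arrays limit the precision. The labels call the arrays biological replicates, so p-values measure the spread between these rats' samples only. Other value columns not used numbered 0.

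Testing covered 20695 probe sets, after removal of 57 controls and of the dimmest 33.3% by average over all arrays. The platform annotation gave the symbols, which were updated where possible through the RefSeq gene table (GRCr8, names only). Of the 31099 probe sets 20826 had 1 symbol, 436 several and 9780 none listed. Gene numbers matched for 20758 and accessions for 2, and 66 symbols stayed as annotated. The files name no genome build.

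Differences came from a limma model (version 3.58.1, R 4.3.3) with 1 coefficient for each group, fitted to the 9 arrays together and moderated by eBayes, with Benjamini-Hochberg adjusted p under 0.05 over all tested probe sets, tested on simulated data. A listed gene was represented by its brightest probe set. Named were all member probe sets, up to 5 called genes of each list by smallest p, a fixed set of relatives (such as Nr4a2, Srf and Crem), and the 10 most alike genes. The members, lists and tests were chosen with earlier results of these data known. Alternatives were quantile normalization, centring, other filters, eBayes with trend, array weights, only the arrays compared, a replicate block, means over probe sets of a gene, and leaving out each array. Figures used Python 3.11.15 and matplotlib 3.10.9.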

Additional observations from a re-analysis of the deposited data

How the results depend on the processing

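With the other filters, centring, eBayes trend, array weights and only the 6 arrays compared, 9 to 11 of the 14 immediate early probe sets were called in treated minus untreated and in withdrawal minus treated, and 0 in withdrawal minus untreated, except for 1 with array weights. In withdrawal minus treated, 10 calls became 5 after quantile normalization. Leaving out 1 array gave 9 to 11 calls in treated minus untreated, 0 in withdrawal minus untreated and 8 to 11 in withdrawal minus treated, and with quantile normalization as well, chosen after seeing the data, 3 to 10, 0 and 1 to 7 (in withdrawal minus treated 5, 2 and 2 without treated 1, 2 and 3, 1, 1 and 7 without withdrawal 1, 2 and 3, and 4, 6 and 4 without untreated 1, 2 and 3). Means over the probe sets of a gene gave 8 of 9 tested genes, 0 and 7, with Fos at 0.88 in treated minus untreated and Egr2 below the filter. Over all probe sets, treated minus untreated gave 5817 (4318 higher, 1499 lower), 3559 after quantile normalization (1604 and 1955), 3209 with only the 6 arrays, and 2029 (without untreated replicate 2) to 6340 without 1 array. Withdrawal minus untreated gave 33, then 87 after quantile normalization, 3275 with array weights, 494 with only the 6 arrays, and 7 to 399 (without treated replicate 1) without 1 array. Withdrawal minus treated gave 9057 (2312 higher, 6745 lower), 6032 after quantile normalization (3012 and 3020), and 5573 to 9545 without 1 array. Replicate numbers shared across groups were not used to pair the arrays, and same-numbered deviations correlated from -0.28 to 0.50. These correlations cannot decide whether a number marks a pair, since arrays of different number were not compared. With the replicate block the calls among the 14 were 11, 0 and 10, and over all probe sets 6414, 50 and 9434. No called member probe set changed sign. Among those not called, signs turned in treated minus untreated for Egr2 1398266_a_at (-0.030 to 0.19 without 1 array) and Nr4a1 (-0.14 to 0.46 after quantile normalization without 1 array). In withdrawal minus untreated they turned for Fos 1375043_at (-0.067 to 0.73), Egr1 (0.10 after quantile normalization, -0.45 to 0.20 without 1 array) and Ier2 (0.089, -0.29 to 0.23). In withdrawal minus treated they turned for Egr2 1387306_a_at (-0.38 to 0.24), Egr2 1398266_a_at (-0.061 after quantile normalization, -0.013 centred, -0.068 to 0.15) and Nr4a1 (0.36 after quantile normalization). The cause was not tested. An offset before taking logs was not run, because the values were already log2.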
